A study of Mus musculus with 6 samples.

Results

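Immediate early genes are transcribed within minutes of a signal reaching a cell, without new protein synthesis, and most of them encode transcription factors or proteins that switch the signal off again. The set described here holds 10 of them, which are the AP-1 subunits Fos, Fosb, Fosl2, Jun and Junb, the zinc finger factors Egr1, Egr2 and Egr3, the nuclear regulator Ier2 and the phosphatase Dusp1. They were taken by symbol from the array: every non-control probe whose accession belongs to 1 of these genes was read on all 6 arrays, which gave 11 probes for the 10 genes, among 20145 genes that carried a symbol. Each gene had 1 probe except Fosl2, which had 2, and the Fos probe was spotted 10 times per array.

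The RNA came from cortical cells of C57BL/6N mouse embryos whose dams received intraperitoneal saline (control) or phenobarbital, which strengthens the response of GABA-A receptors to their ligand. The dose was 80 mg/kg of an 8 mg/mL solution, injected in pairs with 6 h between them over days 10 and 11 of gestation. Both groups were handled alike afterwards: cortex was collected on day 12 by the protocol and at E12.5 by the sample labels, dissociated mechanically, and plated on poly-L-ornithine and fibronectin, and the RNA was taken 4 h after plating. The cells are labelled neural progenitor cells (NPC) of the cerebral neocortex, with no sorting step described, and each group holds 3 arrays (replicates 1 to 3). The labels do not tie the replicates to different litters or cultures. The p-values therefore rest on the variation among these samples alone, and that variation may be technical.

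Transcription of these genes is driven by factors that are already in the nucleus. Serum response factor binds the CArG box together with ternary complex factors that the ERK kinases phosphorylate, and CREB binds the cAMP response element (CRE). The Fos and Jun proteins then pair into AP-1, and the Egr proteins bind GC-rich sites. In developing and adult brain they are widely used as markers of recent signalling, through growth factor receptors, calcium entry or synaptic input. Handling and dissociation of tissue are known to induce them as well.

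The DNA just before the start of transcription was available for 7 of the 10 genes (RefSeq, GRCm38.p6) and was searched on both strands in the 200 bases before the start. Egr1, Egr3 and Ier2 were not in that table. The 3 sequences printed here belong to the gene with the strongest fall (Egr2), to the gene that gives the family its name (Fos) and to the gene with a full CRE (Dusp1). Each is written 5′ to 3′ on the gene's own strand, ending 1 base before the start of transcription, and capitals mark the CArG box, the CRE half-site TGACG (or its reverse complement CGTCA) and the full CRE TGACGTCA.
Egr2: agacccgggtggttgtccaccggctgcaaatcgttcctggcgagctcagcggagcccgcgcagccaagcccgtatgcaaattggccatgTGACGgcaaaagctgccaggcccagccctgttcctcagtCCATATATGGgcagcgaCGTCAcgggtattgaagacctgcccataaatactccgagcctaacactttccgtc
Fos: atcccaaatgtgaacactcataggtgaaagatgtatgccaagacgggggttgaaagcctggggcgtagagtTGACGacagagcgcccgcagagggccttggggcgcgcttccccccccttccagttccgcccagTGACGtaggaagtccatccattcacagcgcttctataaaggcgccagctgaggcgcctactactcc
Dusp1: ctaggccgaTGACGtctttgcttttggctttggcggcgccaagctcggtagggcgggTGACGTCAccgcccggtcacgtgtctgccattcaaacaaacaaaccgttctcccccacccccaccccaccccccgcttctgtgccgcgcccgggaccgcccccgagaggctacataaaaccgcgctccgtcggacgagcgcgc
They lie at chr10:67537669-67537868 (plus strand) for Egr2, chr12:85473690-85473889 (plus strand) for Fos and chr17:26508473-26508672 (minus strand) for Dusp1. Egr2 has 5 annotated starts, and the printed window belongs to 1 of the starts whose window held both motifs.

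A CRE half-site was found in 5 of the 7 genes (Fos, Fosb, Junb, Egr2 and Dusp1), against 17.5% of the 27025 genes and 15.7% of the 32851 windows in the same table. The full CRE, which contains the half-site on each strand, was found in Dusp1, against 1.69% of genes and 1.47% of windows. Among the 7 genes, Egr2 alone held a CArG box, in some but not all of its windows, against 1.32% of genes and 1.18% of windows. In the printed Egr2 window it lies between -72 and -63, with a half-site on either side of it. The half-sites of Fos lie at -129 to -125 and -66 to -62. The AP-1 site TGANTCA was in none of the 7 (6.36% of genes and 5.48% of windows). The EGR site GCGNGGGCG was in Fosb and Fosl2 (4.89% of genes and 4.28% of windows). These are matches of letters within a short window and say nothing of binding.

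**Figure D1:**
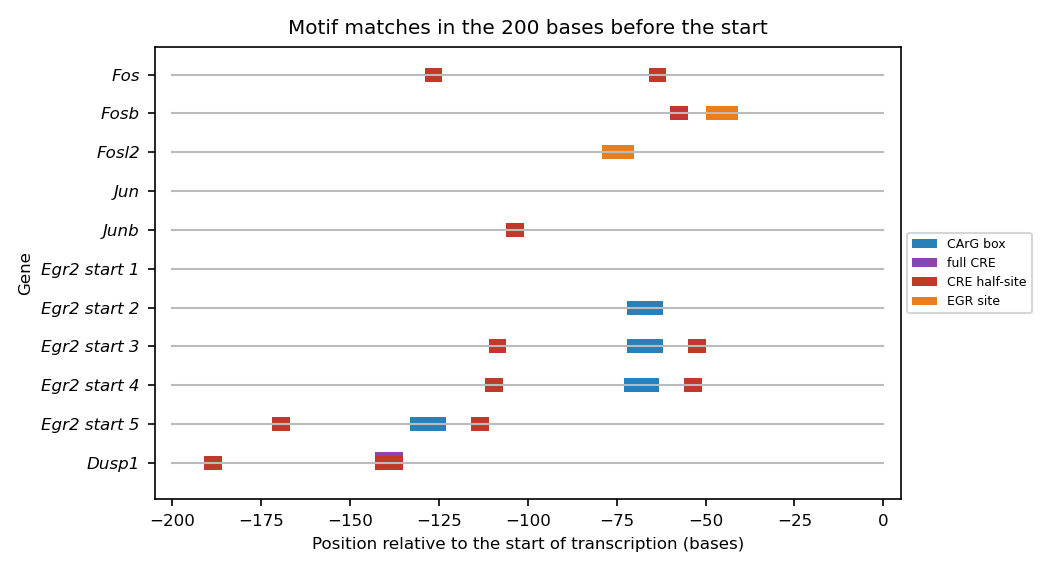
Motif matches in the 200 bases before the start of transcription, 1 line per start site (x axis, bases relative to the start; Egr2 has 5 starts, numbered by position). Coloured blocks are CArG boxes, CRE half-sites, the full CRE and EGR sites; 5 of 7 genes hold a CRE half-site, and Jun holds none of the motifs searched.

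Values are given first as the processed spot signal in the scanner's units and then as log2 of that signal minus the log2 75th percentile of the same array. That scaling matters here, because the 75th percentile was higher with phenobarbital (1802 to 1853) than in controls (1116 to 1286). Leaving the arrays unscaled moves all names alike, from a median difference of -0.16 to one of 0.45, and leaves each gene's place relative to that median as it was. Differences before scaling are given in that sense. Of the 10 genes, 9 passed the filter on dim probes and were tested, and Egr3 did not. Relative to the 75th percentile, 4 of the 9 fell with phenobarbital (Egr2, Egr1, Fos and Fosl2; limma, adjusted p below 0.05), none rose and 5 did not pass. Across all 25304 names tested, 10.5% fell and 6.24% rose, 16.7% in all. The log2 fold change was below 0 for 8 of the 9, against 68% of all names, and the median was -0.44 against -0.16 for all names. For 7 of the 9 genes every phenobarbital array lay below every control array, which held for 32.4% of all names. These arrays measure bulk RNA, so fewer cells that express a gene and less of its RNA per cell cannot be told apart.

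**Figure D2:**
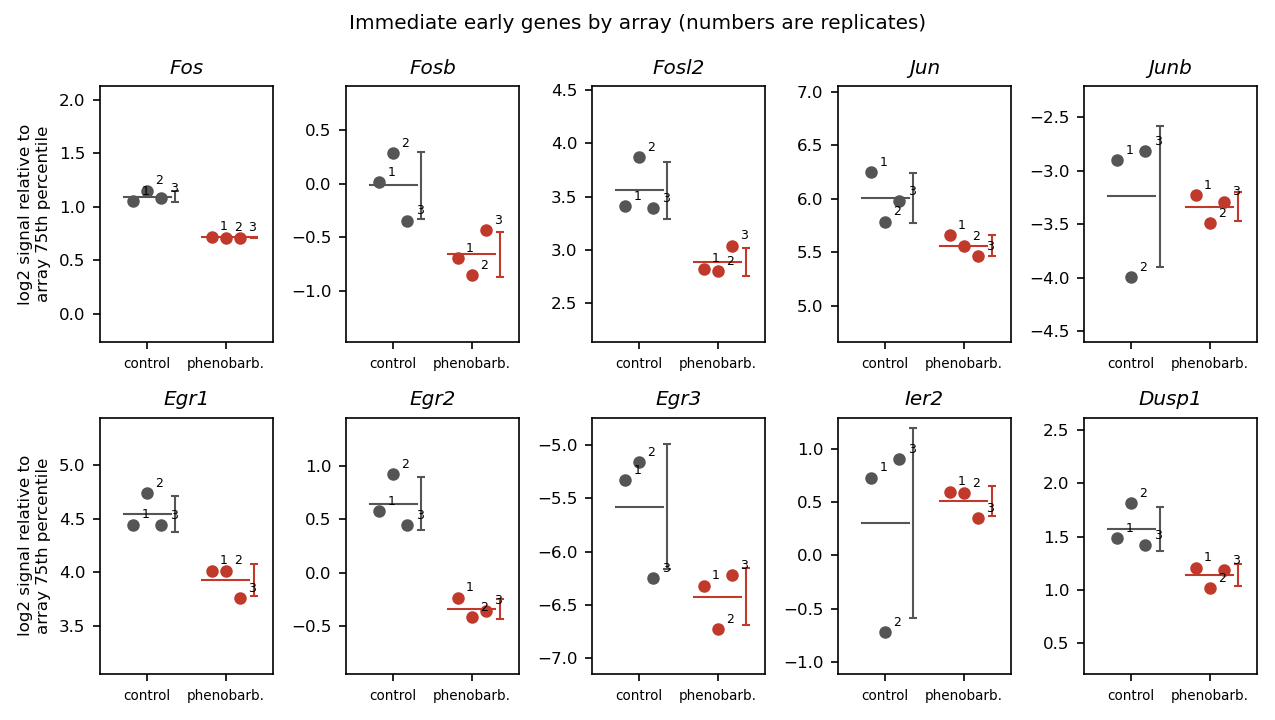
Log2 signal of each gene relative to the 75th percentile of its array (y axis, 1 panel per gene, each spanning the same log2 range); points are arrays numbered by replicate, horizontal lines are group means and bars are SD (n = 3 per group). The groups are apart for Fos, Fosb, Fosl2, Jun, Egr1, Egr2 and Dusp1 and overlap for Junb, Egr3 and Ier2, where control replicate 2 (Junb, Ier2) or control replicate 3 (Egr3) is low.

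Egr2, a zinc finger factor best known for hindbrain segmentation and for myelination by Schwann cells, differed most. Its signal was 1919, 2116 and 1632 on control replicates 1 to 3 and 1564, 1388 and 1409 on phenobarbital replicates 1 to 3. On the scaled log2 axis this was 0.58, 0.92 and 0.44 in controls and -0.23, -0.42 and -0.35 with phenobarbital. All 3 phenobarbital arrays were below all 3 controls on both scales. Egr2 fell by 0.98 ± 0.15 (SE, n = 3 per group; 95% interval -1.34 to -0.62; limma, adjusted p = 0.0130), which is 1.98-fold lower. Only 2.49% of the names tested had a lower fold change. It was negative in each of the 22 other settings tried (-1.10 to -0.37) and passed the threshold in 16 of them.

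Egr1, the most widely induced of the Egr factors, was bright on every array. Its scaled log2 values were 4.45, 4.74 and 4.44 in controls and 4.02, 4.02 and 3.76 with phenobarbital, with no overlap. It fell by 0.61 ± 0.14 (95% interval -0.94 to -0.29; limma, adjusted p = 0.0328). The signals before scaling were 28063, 29797 and 26128 in controls and 29775, 29950 and 24405 with phenobarbital. Before scaling the groups thus overlapped, and the difference was -0.00. The fall in Egr1 is one relative to the rest of the array.

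Egr3, a relative of Egr1 that responds to synaptic activity in mature neurons, was near the limit of detection. Its signals were 32.0, 31.1 and 15.8 in controls and 23.0, 17.5 and 24.1 with phenobarbital. The probe was well above background on 2 of 3 control arrays and on none of the phenobarbital arrays, so it was not tested and no fold is given. The lowest of the 3 controls, replicate 3, was also below every phenobarbital array in signal. On the scaled log2 axis this control read -6.25, above phenobarbital replicates 1 (-6.32) and 2 (-6.73) and below replicate 3 (-6.22).

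Of the Egr co-regulators, which bind Egr proteins and repress their activity, Nab1 fell by 0.57 ± 0.10 (limma, adjusted p = 0.0183), from 2.39 to 2.49 in controls to 1.81 to 1.95 with phenobarbital. Nab2, itself a target of Egr factors, differed by -0.48 ± 0.21 and did not pass (adjusted p = 0.154). Before scaling, the differences of Nab1 and Nab2 were 0.04 and 0.13.

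Fos, the dimer partner that gives AP-1 much of its inducible activity, had the tightest values of the set. Its scaled log2 values were 1.06, 1.15 and 1.09 in controls and 0.72, 0.71 and 0.71 with phenobarbital. The 10 spots of the Fos probe on each array had an SD of 0.042 to 0.120 on the log2 scale. The groups did not overlap, and Fos fell by 0.38 ± 0.09 relative to the 75th percentile (95% interval -0.60 to -0.16; limma, adjusted p = 0.0396). Its signals before scaling went the other way, at 2674, 2481 and 2548 in controls and 3034, 3040 and 2961 with phenobarbital, a difference of 0.23 ± 0.11 on the log2 scale (adjusted p = 0.133). Fos lay 0.22 below the median of all names on either scale.

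Fosb, a close relative of Fos whose truncated splice form accumulates in adult neurons after repeated stimulation, had scaled log2 values of 0.01, 0.28 and -0.34 in controls and -0.69, -0.85 and -0.43 with phenobarbital. The groups did not overlap, though control replicate 3 and phenobarbital replicate 3 lay close together. The difference of -0.65 ± 0.19 was near that of Fosl2 in size and did not pass (95% interval -1.11 to -0.18; limma, adjusted p = 0.0666). Before scaling it was -0.03.

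Fosl2, also called Fra-2, is a Fos relative without the strong activation domain of Fos. Its brighter probe read 3.41, 3.87 and 3.39 in controls and 2.83, 2.80 and 3.04 with phenobarbital. It fell by 0.67 ± 0.16 relative to the 75th percentile (95% interval -1.06 to -0.28; limma, adjusted p = 0.0406), and its difference before scaling was -0.06. The dimmer probe read -2.40, -2.68 and -2.48 in controls and -3.15, -3.37 and -3.18 with phenobarbital. In a fit with every probe as its own row, where 8.74% of 34673 probes fell, the dimmer probe fell by 0.71 ± 0.13 (adjusted p = 0.0197) and the brighter one again by 0.67 (adjusted p = 0.0428). Both probes thus separated the groups by a like amount, with all phenobarbital arrays below all controls. They target the same gene and share each array's RNA, so they are not independent samples.

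Jun, the partner that Fos proteins need to bind DNA, was among the brightest 10% of names. Its scaled log2 values were 6.25, 5.79 and 5.98 in controls and 5.66, 5.56 and 5.46 with phenobarbital. The groups were apart, control replicate 2 being the lowest control, and the difference of -0.44 ± 0.15 did not pass (95% interval -0.79 to -0.09; limma, adjusted p = 0.0818). Before scaling the Jun signals overlapped, at 61589 to 97936 in controls and 79442 to 93044 with phenobarbital. Names of that brightness had a lower median than dim ones: the median log2 fold change was -0.33 in the brightest 10% and -0.06 in the dimmest 10%. The part of brightness in these differences was not tested.

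Junb, which opposes Jun at many targets and is induced with Fos, was dim. It read -2.90, -4.00 and -2.82 in controls and -3.23, -3.49 and -3.29 with phenobarbital. Control replicate 2 was the lowest of all 6 arrays and the other controls were the highest, so the groups overlapped. The difference was -0.10 ± 0.32 (95% interval -0.87 to 0.67; limma, adjusted p = 0.850).

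Ier2, a small nuclear protein induced with the AP-1 genes, had the same shape. It read 0.73, -0.72 and 0.90 in controls and 0.60, 0.58 and 0.35 with phenobarbital. Its difference was 0.21 ± 0.42 (95% interval -0.80 to 1.21; limma, adjusted p = 0.757), an interval that spans both directions.

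Dusp1 encodes a phosphatase that inactivates p38, JNK and ERK and so ends the signal that induced it. It read 1.49, 1.81 and 1.42 in controls and 1.21, 1.02 and 1.18 with phenobarbital. The groups did not overlap, and the difference of -0.43 ± 0.14 did not pass (95% interval -0.77 to -0.10; limma, adjusted p = 0.0761). Before scaling Dusp1 differed by 0.18, the opposite sign.

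Control replicate 2 split the set. On the log2 scale its difference from the mean of the other controls was -1.53 in Ier2, -1.14 in Junb and -0.33 in Jun. The same array was higher in Fosl2 (0.47), Fosb (0.45), Egr2 (0.41), Dusp1 (0.36), Egr1 (0.29) and Fos (0.08). Only 1.30% of all names lay lower on that array than Ier2 did, and 2.57% lower than Junb. Control replicates 2 and 3 were each alone on a slide and scan. Control replicate 2 had the lowest correlation with the other arrays (Pearson's r of 0.976 to 0.988 across names, which are not independent replicates). Without control replicate 2 all 9 differences were negative. In that fit 5 genes fell, where 9.98% of names did: Egr2 (-0.85, limma, adjusted p = 0.0107), Fosl2 (-0.51, 0.0402), Jun (-0.55, 0.0425), Egr1 (-0.52, 0.0435) and Junb (-0.48, 0.0488). Fos then narrowly missed the threshold (-0.36, adjusted p = 0.0555) and Ier2 turned to -0.31 (adjusted p = 0.138).

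**Figure D3:**
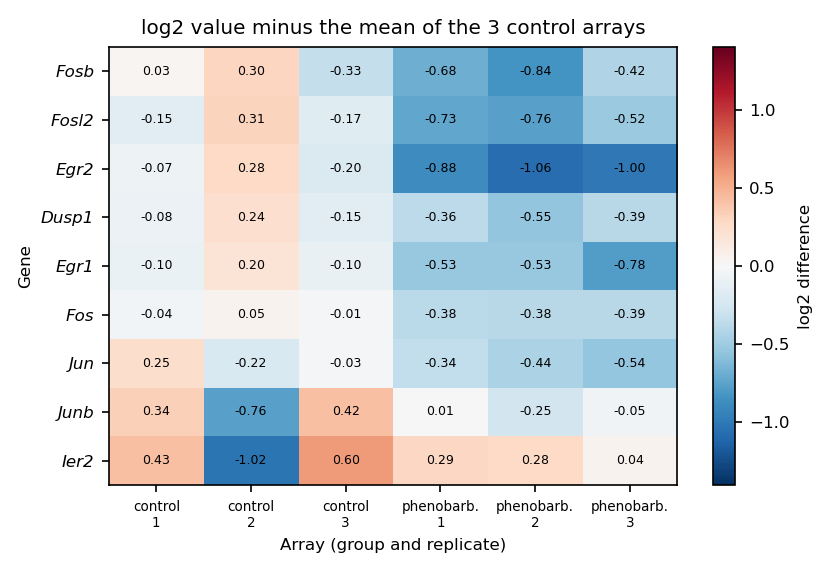
Log2 value of each tested gene on each array minus the mean of the 3 control arrays (colour and number; rows are genes, columns are arrays by group and replicate). Control replicate 2 is high in Fosb, Fosl2, Egr2, Dusp1 and Egr1 and low in Jun, Junb and Ier2, while the phenobarbital columns are negative for all genes except Ier2 and, on replicate 1, Junb (0.01).

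Control replicate 1 shared slide 1 and scan 1 with all 3 phenobarbital arrays, and control replicates 2 and 3 had a slide and a scan each. With the slide as a block, all 9 differences were negative, each resting on control replicate 1 alone against the phenobarbital arrays of its slide. That fit assumes that the lone control varies like the other arrays. None passed, where 0.644% of names fell, and Egr2 differed most, by -0.91. After quantile normalization Egr2 alone fell (-0.98, adjusted p = 0.0155), where 5.43% of names did, and 8 of 9 differences were negative. The calls also changed when 1 array was left out, while the differences of the 4 genes called stayed negative. They were -1.09 to -0.85 for Egr2, -0.66 to -0.52 for Egr1, -0.75 to -0.51 for Fosl2 and -0.40 to -0.36 for Fos. Those of Junb (-0.48 to 0.11) and Ier2 (-0.31 to 0.50) varied in sign. None of the 9 passed without control replicate 1, phenobarbital replicate 2 or phenobarbital replicate 3 (limma), where 0.964%, 0.826% and 2.07% of names fell. In these fits 6, 4 and 6 of the 9 had an unadjusted p below 0.05 (limma). So did 7000 of 25417, 7459 of 25532 and 7727 of 25352 names. Without phenobarbital replicate 1 the count was 1 of 9 (1.66% of names fell), and without control replicate 3 it was again 1 of these 9, Egr2 (3.02% of names). The median of the 9 relative to that of all names was -0.28 as reported. It cannot change where the scaling is 1 factor per array, and it lay between -0.36 and -0.25 in the other settings.

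**Figure D4:**
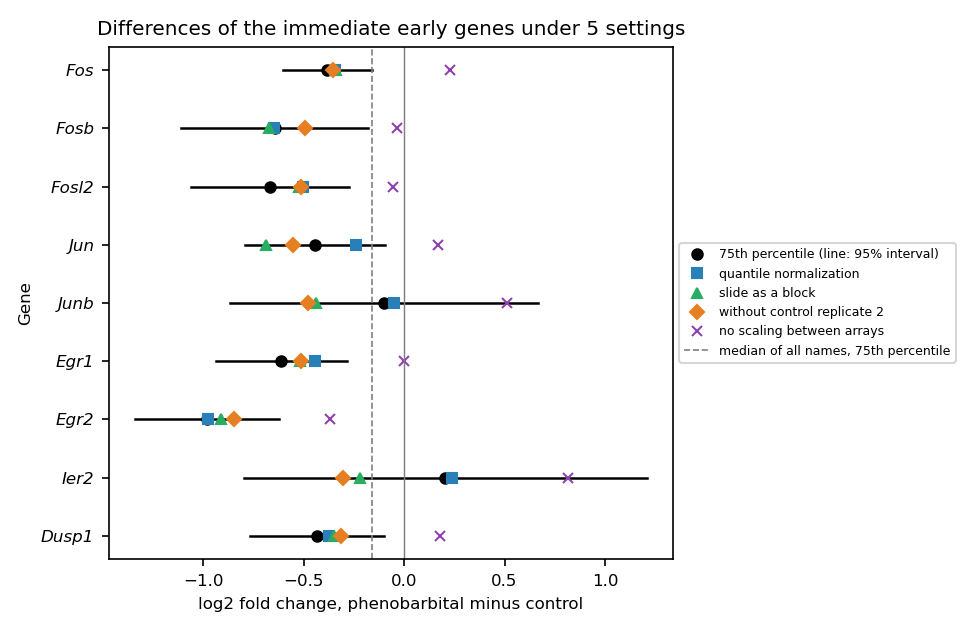
Log2 fold change, phenobarbital minus control (x axis), of the 9 tested genes under 5 settings (symbols); black lines are 95% intervals of the fit on values scaled to the 75th percentile (n = 3 per group) and the dashed line is the median of all names, -0.16. Egr2 is below 0 in each setting shown; with no scaling between arrays, where the median of all names is 0.45, Fos, Jun, Junb, Ier2 and Dusp1 lie above 0.

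Other AP-1 subunits and dimer partners were also lower where they passed. Of 12 listed genes 11 were tested, 5 fell and none rose, with a median of -0.26, where 10.5% of all names fell and 6.24% rose. Without control replicate 2 the count was 5 lower and 1 higher, where 9.98% of all names fell and 7.34% rose. On unscaled arrays 4 passed upward and none downward, where 40.3% of all names rose and 0.782% fell. Batf, an AP-1 factor of lymphocytes that lacks an activation domain, fell by 1.01 ± 0.17 (limma, adjusted p = 0.0185), from -3.64, -3.06 and -3.29 in controls to -4.18, -4.33 and -4.50. The small Maf proteins are partners that carry no activation domain either, and of these Maff fell by 0.59 ± 0.11 (0.0228) and Mafg by 0.56 ± 0.10 (0.0228). The other Mafg probes differed by 0.05 and 0.46 and did not pass. Jdp2, a Jun-binding repressor, fell by 0.74 ± 0.18 (adjusted p = 0.0417). Jund, the Jun protein that is present without stimulation and is named here because it completes the count, fell by 0.70 ± 0.17 (adjusted p = 0.0423). After quantile normalization 2 of these 5 passed (Batf and Maff), where 5.43% of all names fell. Before scaling, Maff and Mafg differed by 0.02 and 0.06.

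Among 32 other immediate early genes 31 were tested, of which 10 fell and none rose, with a median of -0.32. Of all names, 10.5% fell and 6.24% rose. A negative difference was seen in 27 of the 31, against 68% of all names. On unscaled arrays 7 passed upward and 1 downward, where 40.3% of all names rose and 0.782% fell. Ptgs2, the inducible cyclooxygenase, had the smallest p: it read -0.03, -0.13 and 0.26 in controls and -1.01, -1.32 and -1.15 with phenobarbital. It fell by 1.19 ± 0.15 (limma, adjusted p = 0.00722). With the slide as a block, where the control arm is 1 array, its difference was -1.13 (adjusted p = 0.0480). Egr4, the remaining member of the Egr family, fell by 1.06 ± 0.17 (adjusted p = 0.0138), from -2.22, -1.82 and -2.37 to -3.32, -3.15 and -3.14, a size close to that of Egr2. Ppp1r15a, which lifts the translational block of the stress response, fell by 0.72 ± 0.11 (adjusted p = 0.0128). Ccn1, a matrix protein induced through serum response factor, fell by 0.60 ± 0.11 (adjusted p = 0.0208), and by 0.45 after quantile normalization, where it did not pass (0.0591). Ptgs2, Egr4 and Ppp1r15a were also below 0 before scaling (-0.58, -0.45 and -0.11), and Ccn1 was at 0.01. The other 6 that fell were Myc, Klf4, Sgk1, Ccn2, Zfp36 and Klf6. After quantile normalization 6 of the list passed, all downward, where 5.43% of all names fell.

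Genes that feed into or damp the signal passed in each direction, at shares of their lists that can be read against the 10.5% of all names that fell and the 6.24% that rose. Of 14 MAPK phosphatases and feedback inhibitors 3 fell and 1 rose, with a median of -0.25. Dusp5, a nuclear phosphatase for ERK, rose by 1.01 ± 0.26 (limma, adjusted p = 0.0475). Dusp10 fell by 0.66 ± 0.17 (0.0435), Dusp2 by 0.55 ± 0.13 (0.0389) and Dusp8 by 0.44 ± 0.12 (0.0490). Before scaling Dusp2 and Dusp8 differed by 0.06 and 0.18, and none of the 4 passed with the slide as a block.

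Of 28 upstream genes (MAP kinases, their nuclear kinases, serum response factor, its cofactors and CREB) 2 rose and 3 fell, with a median of -0.19. Both the count and the median are near those of all names (16.7% called, -0.16). Rps6ka3, a kinase downstream of ERK, rose by 1.25 ± 0.20 on its brightest probe (limma, adjusted p = 0.0147), while its other probe differed by 0.15 and did not pass. Mapk3, which encodes ERK1, rose by 0.56 ± 0.10 (adjusted p = 0.0215), from 2.36, 2.19 and 2.40 to 2.89, 2.87 and 2.87, and its other probe rose by 1.52 (adjusted p = 0.0360). Elk1, a ternary complex factor, fell by 0.47 ± 0.09 (0.0244), Creb1 by 0.46 ± 0.10 (0.0307) and Mrtfb, a cofactor of serum response factor, by 0.43 ± 0.10 (0.0347). Their other probes did not pass, with 0.56 for Elk1, -0.15 for Creb1 and 0.40 and -0.19 for Mrtfb. After quantile normalization Elk1 was at -0.07, and before scaling Elk1, Creb1 and Mrtfb differed by 0.14, 0.15 and 0.18.

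In the fit by probe, 1 of 4 dimmer probes of Homer1 and the dimmer probe of Tiparp (other immediate early genes) fell, and the dimmer probe of Mrtfa and 1 of 2 of Elk3 rose. The remaining probes of these genes, the brightest included, did not pass. Of all 34673 probes, 8.74% fell and 6.97% rose.

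**Figure D5:**
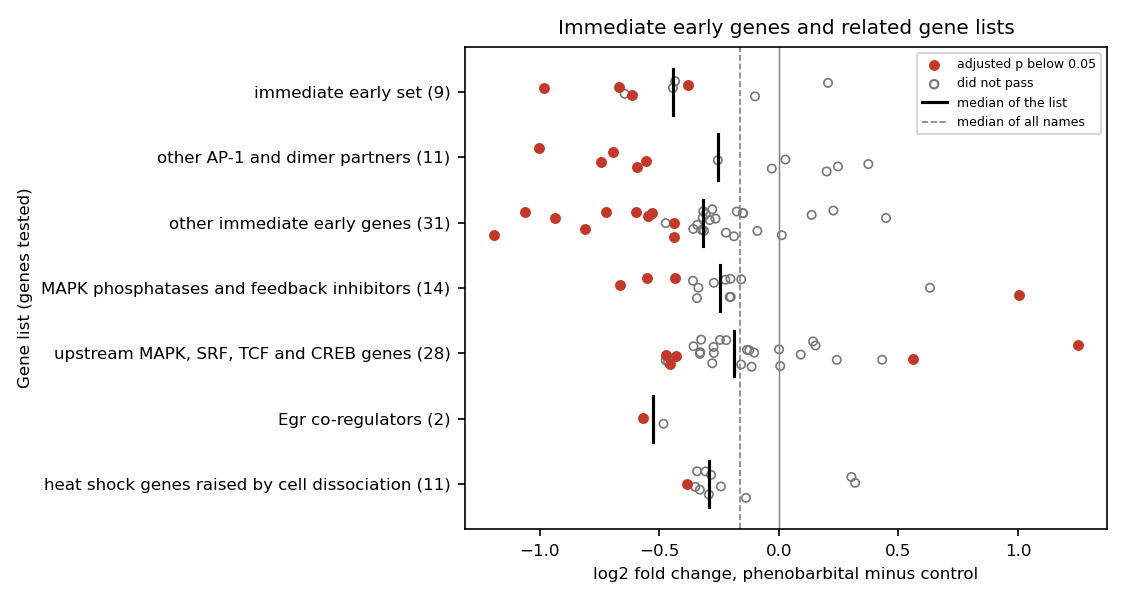
Log2 fold change, phenobarbital minus control (x axis), of each tested gene of the 10-gene set and of 6 related lists (y axis, number tested in brackets); filled points have an adjusted p below 0.05, vertical bars are list medians and the dashed line is the median of all names, -0.16. No gene of the AP-1 or immediate early lists passed upward, relative to the 75th percentile of each array.

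Heat shock genes, which dissociation of tissue can also induce, were read beside the set. Of 12 listed 11 were tested, and 1 passed, where 10.5% of all names fell and 6.24% rose. Hsp90ab1, a constitutive chaperone, fell by 0.38 ± 0.10 (limma, adjusted p = 0.0465), and its difference was 0.07 after quantile normalization. The median of this list was -0.29 as reported and 0.05 after quantile normalization. Hspa1a, the most inducible of them, differed by 0.30 ± 0.87 and did not pass (adjusted p = 0.833). It is named here after its values were seen. In the fit by probe, 1 of 2 dimmer probes of Hspa8, the constitutive relative of Hspa1a, rose by 1.98 ± 0.25 (limma, adjusted p = 0.00744). For Hspe1, 1 of 2 dimmer probes fell by 0.52 ± 0.12 (limma, adjusted p = 0.0341). The remaining probes of both, the brightest included (-0.31 and -0.14), did not pass. Of all 34673 probes, 8.74% fell and 6.97% rose.

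Markers of the cell types in the tissue moved with the same comparison. All 10 markers of cortical radial glia were well above background on all arrays. Their summed level (the sum over the list of signal divided by the array's 75th percentile) was 336 to 360 in controls and 269 to 302 with phenobarbital, and Vim made up 62.2% to 72.3% of that sum. Of the 10, Emx2 rose and Vim fell, Vim with a difference of 0.05 after quantile normalization, and the list's median of -0.10 was above that of all names. The 7 neuronal markers summed to 235 to 258 and 147 to 176, and 5 fell, where 10.5% of all names fell. Intermediate progenitor markers summed to 51.0 to 58.7 and 34.2 to 38.9, with 1 of 5 lower, and Insm1 made up 52.4% to 71.1% of that sum. Endothelial markers went from 70.1 to 81.3 down to 42.0 to 48.9 (4 of 8 fell). Egfl7 and Kdr made up at least 83.3% of that sum, while Pecam1 and Tek each differed by 0.71 and did not pass. Mural and meningeal markers went from 54.9 to 59.6 down to 30.9 to 37.4 (6 of 8 fell). Erythroid markers went from 813 to 939 down to 538 to 545 (5 of 6 fell), a sum of which Hbb-y and Hba-a1 made up at least 94.5%; after quantile normalization these differed by 0.14 and -0.17, and 1 of 6 fell. Choroid plexus markers went from 1.91 to 4.10 up to 11.7 to 23.0, and of the 5 measured on all arrays 4 rose (Folr1, Clic6, Otx2 and Ttr). Microglial markers overlapped, at 7.81 to 10.2 and 8.45 to 11.0, with 3 of 8 lower and 1 higher, and Csf1r made up 53.1% to 76.0% of that sum. After quantile normalization 2 of 7 neuronal, 2 of 8 endothelial and 4 of 8 mural and meningeal markers fell, where 5.43% of all names did. With the slide as a block, where the control arm is 1 array, the medians of these lists were -0.53, -0.49 and -0.71. The median of all names was -0.18 in that fit. None of the markers in these lists was below background on all 6 arrays. The part of these shifts in the immediate early genes was not tested.

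The mean of the 9 centred profiles was 0.29, 0.16 and 0.23 on control replicates 1 to 3 and -0.17, -0.28 and -0.22 on phenobarbital replicates 1 to 3. The 5 genes outside the set whose values on the 6 arrays followed that mean most closely were Mthfd2, a mitochondrial folate enzyme (Pearson's r = 0.998), the kinase Slk (0.998), the N-myristoyltransferase Nmt1 (0.997), the ubiquitin ligase Ubr4 (0.997) and the helicase Dhx40 (0.995). They were picked as the highest of all tested genes over 6 arrays that fall into 2 groups, so the values describe likeness only. Of the 5, Ubr4 alone did not pass the test between groups (-0.23 ± 0.09, limma, adjusted p = 0.137).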

How the data were processed

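Total RNA (0.2 µg) of 3 control and 3 phenobarbital samples was labelled with Cy3 for 1-colour Agilent arrays, per the labels' protocols. Agilent Feature Extraction 10.7.3.1 was used by the authors to quantify them, per the file headers, which give the array annotation as mm9; the submitters' processing notes list version 10.7. The authors' deposited signals are linear intensity after background subtraction, with no scaling from array to array. Their deposited value table is on a log2 scale with each probe centred on an unknown constant. Its column medians were 0.08, 0.10 and 0.09 for controls and -0.02, -0.09 and -0.08 for phenobarbital, and its scale and direction were settled against the scanner values.

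The 75th percentile of 59305 non-control spots was subtracted from each array's log2 signals. Outlier spots were left out, and none was saturated. Probes were named by accession through RefSeq (GRCm38.p6). Probes were retained when every array of either group read well above background and each group had at least 2 values, which left 34673 of 55681. The brightest probe of a name was tested, for 25304 names (15182 gene symbols). The share of spots well above background was 62.8% to 68.7%, and precision is limited by the number of arrays. The test was limma (3.58.1, R 4.3.3; lmFit, eBayes), two-sided, adjusted by Benjamini-Hochberg over all names, with a threshold of 0.05. The script was tested on simulated data. All 10 genes are named, with up to 4 genes of each related list past the threshold by smallest p and the 5 most alike genes. The result of 1 further probe is not reported here. Genes, lists and settings were chosen with earlier results of these data known.

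Alternatives changed the background correction (normexp, offset 50, on median spot signals, since the files hold no means), scaling, filter, probe choice, variance prior, weights, value source and blocks, or left out an array. Cyclic loess and no scaling were chosen after seeing the data.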

Additional observations from a re-analysis of the deposited data

How the results depend on the processing

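The difference of Egr2 was below 0 in all 22 settings, while the number of calls depended on the scaling, the blocks and the arrays. The number of genes of the set that passed was 4 as reported, 2 after scaling to the median and with the slide as a random block, 1 after quantile normalization, cyclic loess, no filter on dim probes and a percentile over detected probes, 6 with normexp and with a robust prior and 7 with array weights. Of all names 18.7%, 14.4% and 29.3% fell in these last 3 settings, against 10.5% as reported. The share was 4.06% after scaling to the median and 6.99% with the random block. It was 5.43% after quantile normalization, 3.58% after cyclic loess, 1.59% with no filter and 4.36% with the percentile over detected probes. None passed with the slide as a block, the replicate block or no scaling, where 0.644%, 0.0988% and 0.782% of all names fell. With the replicate block 6 of the set had an unadjusted p below 0.05 (limma), as did 6803 of 25304 names. With no scaling 1 of the set did, as did 14064 names. Leaving out 1 array gave 0 to 5 for the set (0 without control replicate 1 or phenobarbital replicate 2 or 3, and 1 of the 9, Egr2, without phenobarbital replicate 1 or control replicate 3), 881 to 4406 for all names, 0 to 6 for other AP-1 genes, 1 to 8 for other immediate early genes, 0 to 4 for MAPK phosphatases and 0 to 6 for upstream genes.

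For all names, other AP-1 genes, other immediate early genes, phosphatases and upstream genes in that order, as reported 4234, 5, 10, 4 and 5 passed. Scaling to the median gave 2470, 2, 5, 0 and 2, the percentile over detected probes 2716, 2, 5, 0 and 3, no filter 1486, 1, 3, 0 and 1, and cyclic loess 2688, 1, 3, 0 and 3. Quantile normalization gave 2966 (11.7%), 2, 6, 1 and 3. Array weights gave 10319, and 18, 7 and 14 for the last 3 lists. The slide as a block gave 771, 0, 1, 0 and 0. No scaling gave 10384 (10186 rose, 198 fell), with 4 other AP-1 genes, all upward, 8 other immediate early genes, 7 of them upward, and 2 phosphatases and 11 upstream genes, all upward. Normexp gave 6260 for all names (24.7%), with 2 phosphatases and 8 upstream genes. With every probe tested, 5445 of 34673 probes passed (15.7%), 9 of them among the 55 probes of upstream genes. The mean over probes gave 4262 for all names (16.8%) and 2 upstream genes. The random block gave 3137 for all names (12.4%) and 1 phosphatase.

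No scaling moves every name alike (median 0.45), which by construction put Fos at 0.23, Jun at 0.17, Junb at 0.51 and Dusp1 at 0.18 with their place relative to the median unchanged. The sign of Junb turned without control replicate 1 (0.07) or 3 (0.11), and that of Ier2 with array weights (-0.11), the slide as a block (-0.22) and without control replicate 2 (-0.31). Leaving out 1 array gave -0.48 to 0.11 for Junb and -0.31 to 0.50 for Ier2. The cause of these last turns was not tested.

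Replicate numbers did not pair the arrays: deviations of same-numbered arrays correlated at 0.078, -0.16 and -0.35, and 1 of 6 arrays correlated best with its own number. With the replicate block 295 names passed and 0 of each list (limma). An unadjusted p below 0.05 (limma) was found for 6 of 9 of the set and for 6803 of 25304 names. For the lists, in the order above, it was found for 5 of 11, 11 of 31, 7 of 14 and 9 of 28.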
